A study of Mus musculus with 8 samples.

Results

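The 8 genes described here form the feedback arm of Wnt signalling and its transcriptional read-out: Axin2, Nkd1 and Nkd2 inside the cell, the secreted proteins Dkk3, Dkk4 and Sfrp1, and the nuclear genes Tcf7 and Myc. They were taken by gene symbol, and all 8 were found in each of the 3 tables of RNA sequencing values, among 22431 symbols in the tables of HFSC and Shh-CreER cells and 33365 in that of K15-CrePGR hair bulbs. Hair follicle stem cells of the bulge (HFSC) came from K15-CrePGR mice at postnatal day 68, with 1 library of the Bmpr1a-deleted genotype (labelled cKO, from Bmpr1a fl/fl mice) and 1 control library (labelled Het). Transit-amplifying cells (TAC), the dividing progeny of the stem cells in the hair bulb, came from Shh-CreER mice of the same age, again with 1 cKO and 1 Het library. Further TAC were taken from K15-CrePGR hair bulbs at day 80, with 2 samples of the deleted genotype (KO 64 and KO 84) and 2 control samples (WT 52 and WT 57). All mice were of mixed strain. The deleted gene, Bmpr1a, codes for a receptor of the bone morphogenetic protein (BMP) family of ligands. K15-CrePGR is a recombinase driven by the promoter of the stem cell keratin gene Krt15, so its TAC descend from recombined stem cells, and Shh-CreER is driven by the Shh gene, which is active in a part of the hair matrix. The drug schedule and the number of animals behind a library are not stated in the labels.

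In canonical Wnt signalling, secreted Wnt ligands bind Frizzled and Lrp receptors, beta-catenin escapes its destruction complex, and TCF/LEF factors switch on target genes. Several targets encode inhibitors of the same pathway, which makes them both brakes and gauges of its activity. In the hair follicle, Wnt signalling is known to drive the onset of growth and the hair shaft programme, and BMP signalling is known to hold bulge stem cells at rest and to be needed for shaft differentiation.

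After deletion of Bmpr1a the 8 genes did not move as a block, and each cell set had its own pattern. In HFSC, Sfrp1 was at 196 FPKM in the cKO library against 82.0 FPKM in the Het library, while Dkk3 stood at 109 against 207 FPKM and Axin2 at 8.72 against 16.4 FPKM (FPKM, fragments per kilobase of transcript and per unit of sequencing depth). In Shh-CreER TAC the secreted inhibitor Dkk4 was at 37.9 FPKM in cKO against 16.7 FPKM in Het, and the other genes differed by less. In K15-CrePGR TAC, Nkd2 averaged 10.2 ± 0.841 FPKM in KO and 30.5 ± 0.612 FPKM in WT samples, Myc was lower in both KO samples, and Sfrp1 and Dkk3 were higher in both (SD, n = 2 each). None of the 7 genes tested there passed limma's adjusted p threshold of 0.05.

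As a sequence context for these genes, the 250 bases before the annotated start are shown for Axin2, a widely used gauge of Wnt activity, and for Nkd2, the gene with the smallest p among the 8 (RefSeq, build GRCm38.p6). Axin2 lies on the plus strand at chr11:108920099-108920348 and Nkd2 on the minus strand at chr13:73847632-73847881, each written from 5′ to 3′. Capitals mark CAGAC or its reverse complement GTCTG, the short element bound by Smad proteins, which carry the BMP signal.
Axin2: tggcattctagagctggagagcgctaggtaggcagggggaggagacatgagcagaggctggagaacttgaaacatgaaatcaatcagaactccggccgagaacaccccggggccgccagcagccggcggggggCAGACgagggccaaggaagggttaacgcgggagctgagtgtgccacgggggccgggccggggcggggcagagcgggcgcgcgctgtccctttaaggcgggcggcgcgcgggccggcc
Nkd2: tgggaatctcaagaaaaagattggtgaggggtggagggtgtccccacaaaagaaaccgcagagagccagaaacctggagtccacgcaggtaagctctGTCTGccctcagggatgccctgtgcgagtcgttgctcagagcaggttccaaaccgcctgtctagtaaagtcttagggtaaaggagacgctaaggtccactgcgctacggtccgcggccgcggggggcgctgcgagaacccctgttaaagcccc

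The capitals begin at position -117 from the start in Axin2 and at -153 in Nkd2. CAGAC, searched on both strands and added after the windows were read, occurs in 42.2% of 32851 RefSeq windows of the same length. The TCF/LEF letters CTTTGA and CTTTGT, on both strands, occur in neither window; 27.6% of all windows hold at least 1 of them. GGCGCC, a GC-rich Smad element that is its own reverse complement, also occurs in neither, against 9.59% of all windows. Windows were matched for 4 of the 8 genes; those of Nkd1 and of Tcf7 (2 windows) held no CTTTGA or CTTTGT either, and both Tcf7 windows held GGCGCC once. No window was matched for Dkk3, Dkk4, Sfrp1 and Myc.

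Before the genes are taken in turn, some features of the libraries bear on all of them. Bmpr1a itself was at 39.3 FPKM in cKO and 31.8 FPKM in Het HFSC, 40.4 and 46.0 FPKM in cKO and Het Shh-CreER TAC, and 39.0 ± 1.36 and 39.7 ± 3.60 FPKM in KO and WT K15-CrePGR TAC (SD, n = 2 each). These are levels of the gene as a unit and cannot show whether the floxed segment was lost. Markers of the labelled cell types were present, though not all were confined to them. The bulge marker Cd34 was at 147 FPKM in cKO and 556 FPKM in Het HFSC. Another bulge marker, Lhx2, was at 167 FPKM in cKO and 177 FPKM in Het HFSC. In K15-CrePGR TAC, Lhx2 was at 152 and 225 FPKM in KO 64 and KO 84, against 48.6 and 44.7 FPKM in WT 52 and WT 57. In Shh-CreER TAC it was at 6.75 FPKM in cKO and 13.9 FPKM in Het. The matrix marker Lef1 was at 51.6 FPKM in cKO and 87.0 FPKM in Het Shh-CreER TAC. In K15-CrePGR TAC, Lef1 was at 36.8 to 50.2 FPKM in KO and 64.1 to 68.9 FPKM in WT. Another matrix marker, Shh, went the other way, at 199 FPKM in cKO and 111 FPKM in Het Shh-CreER TAC. In K15-CrePGR TAC, Shh was at 50.5 and 72.8 FPKM in KO and 19.6 and 19.8 FPKM in WT. The median log2 difference of 9 matrix markers, deleted minus control, was -0.74 in Shh-CreER TAC and -0.45 in K15-CrePGR TAC. Xist, the RNA of the inactive X chromosome, was at 3.98 FPKM in cKO and 68.9 FPKM in Het HFSC, and at 3.26 FPKM in WT 52 but 175 to 226 FPKM in the other K15-CrePGR libraries, so sex and genotype cannot be told apart in HFSC. From the worth of single reads among low values, depth was estimated at 47.5 and 55.5 Mreads (megareads) in cKO and Het HFSC and at 28.7 and 28.6 Mreads in cKO and Het Shh-CreER TAC. In these bulk samples, fewer cells of a type and less RNA per cell cannot be told apart.

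Levels in the control libraries differed between the cell sets for most of the genes. Dkk3 was at 207 FPKM in Het HFSC, 2.54 FPKM in Het Shh-CreER TAC and 0.926 to 1.26 FPKM in WT K15-CrePGR TAC, and Sfrp1 followed the same order with 82.0, 4.44 and 1.70 to 3.43 FPKM. Nkd2 ran the other way, at 2.18 FPKM in Het HFSC, 30.4 FPKM in Het Shh-CreER TAC and 30.1 to 31.0 FPKM in WT K15-CrePGR TAC. Tcf7 was at 5.49 FPKM in Het HFSC, 30.2 FPKM in Het Shh-CreER TAC and 23.7 to 29.8 FPKM in WT K15-CrePGR TAC. Dkk4 was listed at 0 in Het HFSC, at 16.7 FPKM in Het Shh-CreER TAC and at 0.352 and 0.365 FPKM in WT K15-CrePGR TAC. The 3 tables were normalized separately, so these are levels set side by side and not tested differences.

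Within WT K15-CrePGR TAC, by level per transcript length, the order ran Myc, Nkd2, Tcf7, Axin2, Nkd1, Sfrp1, Dkk3 and Dkk4. Myc and Nkd2, and Nkd2 and Tcf7, were neighbours whose means differed by less than the larger of their SDs (16.1 FPKM for Myc, 4.27 FPKM for Tcf7). In the KO samples the order ran Tcf7, Axin2, Myc, Sfrp1, Nkd2, Nkd1, Dkk3 and Dkk4, and the steps from Axin2 to Myc, Myc to Sfrp1, Sfrp1 to Nkd2 and Nkd1 to Dkk3 were smaller than the larger SD. With 1 library each, the order in the other cell sets has no spread to be read against.

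**Figure D1:**
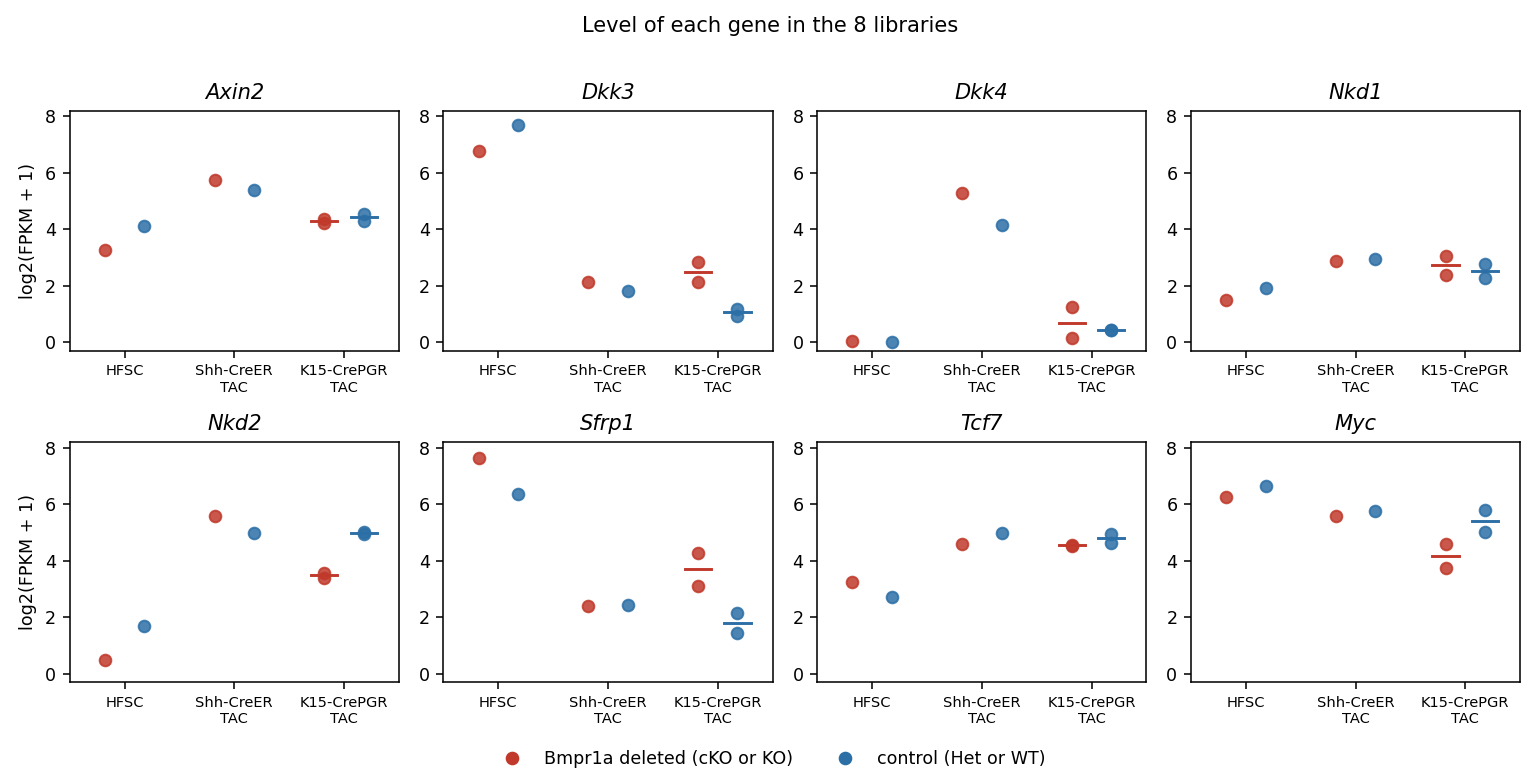
Level of each gene as log2(FPKM + 1), 1 point per library, deleted libraries left of controls in each cell set; short lines are means of 2 libraries. Dkk3 and Sfrp1 are highest in HFSC, Dkk4 is above 16 FPKM in Shh-CreER TAC and at most 1.37 FPKM elsewhere, and Nkd2 is lower in both KO than in both WT libraries.

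Axin2 encodes a scaffold of the beta-catenin destruction complex and is a direct Wnt target in many tissues. The table of K15-CrePGR TAC lists Axin2 on mm9 chromosome 11 from 108781662 to 108812099, an interval that holds 2 entries with 2 symbols. Its level was 8.72 FPKM in cKO and 16.4 FPKM in Het HFSC, a log2 difference of -0.84 on FPKM + 1, the scale of every log2 difference here. In Shh-CreER TAC it was at 52.3 FPKM in cKO and 40.7 FPKM in Het (log2 difference 0.35). In K15-CrePGR TAC, Axin2 was at 19.4 and 17.7 FPKM in KO 64 and KO 84, against 22.6 and 18.8 FPKM in WT 52 and WT 57. The groups overlapped, and the log2 difference of -0.15 (95% interval -0.59 to 0.29) had a limma adjusted p of 0.648. The widest difference for Axin2 was therefore the one in stem cells, where no replicate stands behind it.

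Nkd1 and Nkd2 encode the Naked cuticle proteins, which bind Dishevelled and restrain Wnt signalling from inside the cell. Nkd1 (mm9 chromosome 8, 91045242 to 91118786) was at 1.83 FPKM in cKO and 2.82 FPKM in Het HFSC, and at 6.41 and 6.76 FPKM in cKO and Het Shh-CreER TAC. In K15-CrePGR TAC it was at 4.28 and 7.41 FPKM in KO 64 and KO 84, against 5.91 and 3.83 FPKM in WT 52 and WT 57. Each genotype spanned much of the range of the other (log2 difference 0.21, 95% interval -0.68 to 1.09, limma adjusted p = 0.767), and the sign turned to -0.10 with quantile normalization, -0.13 without KO 84 and -0.05 without WT 57.

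Nkd2 (mm9 chromosome 13, 73955980 to 73985079) showed the clearest separation of genotypes. In K15-CrePGR TAC it was at 10.8 and 9.57 FPKM in KO 64 and KO 84, against 31.0 and 30.1 FPKM in WT 52 and WT 57. The samples of a genotype lay close together and the genotypes were far apart. The log2 difference was -1.50 (SE 0.142, 95% interval -1.88 to -1.12), with an unadjusted p of 0.000288, rank 41 of 13565 loci, and a limma adjusted p of 0.0866. In HFSC it was also lower, with 0.397 FPKM in cKO and 2.18 FPKM in Het, a level at which it passed the filter of a mean of 1 FPKM through the Het library alone. In Shh-CreER TAC the order was the opposite, with 46.5 FPKM in cKO and 30.4 FPKM in Het (log2 difference 0.60). Keratin genes of the hair shaft moved with Nkd2 in K15-CrePGR TAC, with sums over 11 genes of 852 and 669 FPKM in KO 64 and KO 84, against 2924 and 2432 FPKM in WT 52 and WT 57. They were also lower in Shh-CreER TAC, where Nkd2 was higher, with sums over 12 genes of 507 FPKM in cKO and 5371 FPKM in Het. Inner root sheath markers (9 genes) summed to 1500 and 1348 FPKM in KO 64 and KO 84, against 4377 and 4640 FPKM in WT 52 and WT 57, and to 2326 FPKM in cKO and 2026 FPKM in Het Shh-CreER TAC. The part of these differentiating cells in the Nkd2 differences was not tested. The control levels of Nkd2 in TAC of the different Cre lines were 30.4 FPKM in Het Shh-CreER TAC and a mean of 30.5 FPKM in WT K15-CrePGR TAC. Their tables were normalized separately, and age and control genotype differ, so equal values need not mean equal expression.

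Dkk4 encodes a Dickkopf protein, which binds the Lrp co-receptors and blocks ligand action, and is itself a Wnt target in developing hair. In Shh-CreER TAC it was at 37.9 FPKM in cKO and 16.7 FPKM in Het, a log2 difference of 1.14. It was the sole gene of the 8 to differ at least 2-fold there, against 2.67% of 12296 genes that were at least 2-fold higher, and none was at least 2-fold lower, against 2.77%. Between the same libraries, 4 isthmus and infundibulum markers summed to 724 FPKM in cKO and 94.2 FPKM in Het, 8 sebaceous markers to 330 FPKM in cKO and 144 FPKM in Het, and 8 skeletal muscle markers to 35.5 FPKM in cKO and 181 FPKM in Het. The matrix marker Shh was at 199 FPKM in cKO and 111 FPKM in Het. Together, 9 matrix markers summed to 545 FPKM in cKO and 805 FPKM in Het. The part of all these markers in the Dkk4 difference was not tested. In K15-CrePGR TAC, Dkk4 (mm9 chromosome 8, 23734472 to 23738008) was at 1.37 and 0.105 FPKM in KO 64 and KO 84, against 0.352 and 0.365 FPKM in WT 52 and WT 57. That level is below the filter, and KO 64 and KO 84 lay on opposite sides of both WT samples. In HFSC it was at 0.0322 FPKM in cKO, worth about 2.01 reads, and listed at 0 in Het, where 3 reads would have given 0.0411 FPKM. Dkk4 was thus not detectable above that floor in either HFSC library.

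**Figure D2:**
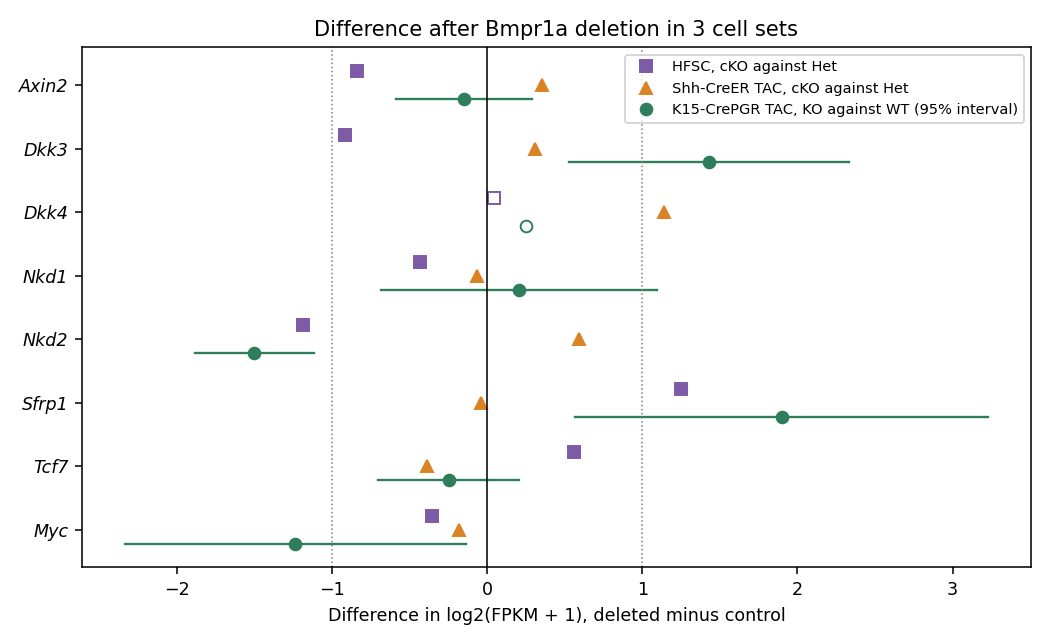
Difference in log2(FPKM + 1), deleted minus control, for each gene in the 3 cell sets; horizontal lines are 95% limma intervals, open symbols are genes below the filter of a mean of 1 FPKM, and dotted lines mark a 2-fold difference. The K15-CrePGR interval of Nkd2 runs from -1.88 to -1.12, while its Shh-CreER point lies at 0.60.

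Dkk3 is a divergent member of the same family that, unlike Dkk1 and Dkk4, is not known as a strong blocker of Lrp. It was at 109 FPKM in cKO and 207 FPKM in Het HFSC (log2 difference -0.91) and at 3.38 and 2.54 FPKM in cKO and Het Shh-CreER TAC. In K15-CrePGR TAC (mm9 chromosome 7, 119259532 to 119302571) it was at 6.21 and 3.38 FPKM in KO 64 and KO 84, against 1.26 and 0.926 FPKM in WT 52 and WT 57. In HFSC, where Dkk3 was lower in cKO, the 10 bulge markers summed to 3712 FPKM in cKO and 9135 FPKM in Het. Most of that sum was Krt15, at 3075 FPKM in cKO and 7834 FPKM in Het. Of the 10, 2 were at least 2-fold higher, against 5.92% of all genes, and 4 lower, against 4.6%. Their median log2 difference was -0.13. The part of the bulge markers in the Dkk3 difference was not tested. In K15-CrePGR TAC both KO samples were above both WT samples (log2 difference 1.43, 95% interval 0.53 to 2.33, unadjusted p = 0.0109, limma adjusted p = 0.181).

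Sfrp1 encodes a secreted Frizzled-related protein that binds Wnt ligands outside the cell. It was the one gene of the 8 at least 2-fold higher in cKO HFSC (log2 difference 1.25, against 5.92% of 12205 genes at least 2-fold higher), and Nkd2 (log2 difference -1.19) was the one at least 2-fold lower, against 4.6% of genes. Since Nkd2 passed the filter through the Het library alone, nothing is read from its count there, and its value ran from -2.20 with a pseudocount of 0.1 to -0.41 with one of 5. With 196 FPKM, Sfrp1 was the highest of the 8 in cKO HFSC, whereas Dkk3 was highest in Het HFSC. In Shh-CreER TAC, Sfrp1 was at 4.30 FPKM in cKO and 4.44 FPKM in Het. In K15-CrePGR TAC (mm9 chromosome 8, 24521973 to 24560104) it was at 18.4 and 7.55 FPKM in KO 64 and KO 84, against 3.43 and 1.70 FPKM in WT 52 and WT 57. The genotypes did not overlap, though the KO samples were far apart (log2 difference 1.90, 95% interval 0.57 to 3.23, unadjusted p = 0.0158, limma adjusted p = 0.205).

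Fibroblasts and outer root sheath cells can also express Sfrp1 and Dkk3, and markers of both moved with these genes in K15-CrePGR TAC. The summed level of 8 fibroblast markers was 1592 and 490 FPKM in KO 64 and KO 84, against 414 and 439 FPKM in WT 52 and WT 57. Of these 8 markers, 7 were at least 2-fold higher in KO by their mean log2 values, against 10.1% of loci. Pdgfra was at 8.89 and 1.45 FPKM in KO 64 and KO 84, against 0.743 and 0.849 FPKM in WT 52 and WT 57. It thus passed the filter through the KO samples alone, and nothing is read from its part in this count. The 8 immune markers summed to 1203 and 213 FPKM in KO 64 and KO 84, against 140 and 34.3 FPKM in WT 52 and WT 57, with Cd207 at 0 in KO 84 and both WT samples and Cd3d at 0 in WT 52. Outer root sheath markers (9 genes) summed to 2692 and 4307 FPKM in KO 64 and KO 84, against 1479 and 1388 FPKM in WT 52 and WT 57, and 10 bulge markers to 513 and 639 FPKM in KO, against 129 and 179 FPKM in WT. Markers of the isthmus and infundibulum (4 genes) summed to 278 and 836 FPKM in KO 64 and KO 84, against 38.4 and 26.6 FPKM in WT 52 and WT 57. Smooth muscle markers (5 genes) summed to 98.8 and 44.5 FPKM in KO 64 and KO 84, against 18.2 and 12.6 FPKM in WT 52 and WT 57, and endothelial markers (5 genes) to 26.7 and 3.52 FPKM in KO, against 2.70 and 1.15 FPKM in WT. Every one of these sums was higher in both KO samples than in both WT samples. Without KO 64, the library with the most fibroblast and immune RNA, the log2 difference was 1.31 for Sfrp1 and 1.07 for Dkk3. The part of the other cell types in these 2 differences was not tested. In HFSC, where Sfrp1 was also higher in cKO, the fibroblast sum was 15.7 FPKM in cKO and 20.02 FPKM in Het. Pdgfra was at 0.154 FPKM in cKO and 0.123 FPKM in Het, and Col1a1 at 2.03 and 0.637 FPKM. Only 4 of the 8 fibroblast markers passed the filter there, with a median log2 difference of 0.30. Of these 4, 1 was at least 2-fold higher, against 5.92% of all genes, and 1 lower, against 4.6%. Outer root sheath markers (9 genes) summed to 18862 FPKM in cKO and 15399 FPKM in Het HFSC. Of these 9, 4 were at least 2-fold higher, against 5.92% of all genes, and 0 lower, against 4.6% (median 0.61). Genes of dividing cells (15 genes) summed to 680 FPKM in cKO and 266 FPKM in Het HFSC, and smooth muscle markers (5 genes) to 48.1 and 3.28 FPKM. Melanocyte markers summed to 37.8 FPKM in cKO and 5.31 FPKM in Het HFSC. Sums were lower in cKO for sebaceous markers (154 and 492 FPKM) and immune markers (123 and 304 FPKM). The part of all these cells in the HFSC differences was not tested.

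**Figure D3:**
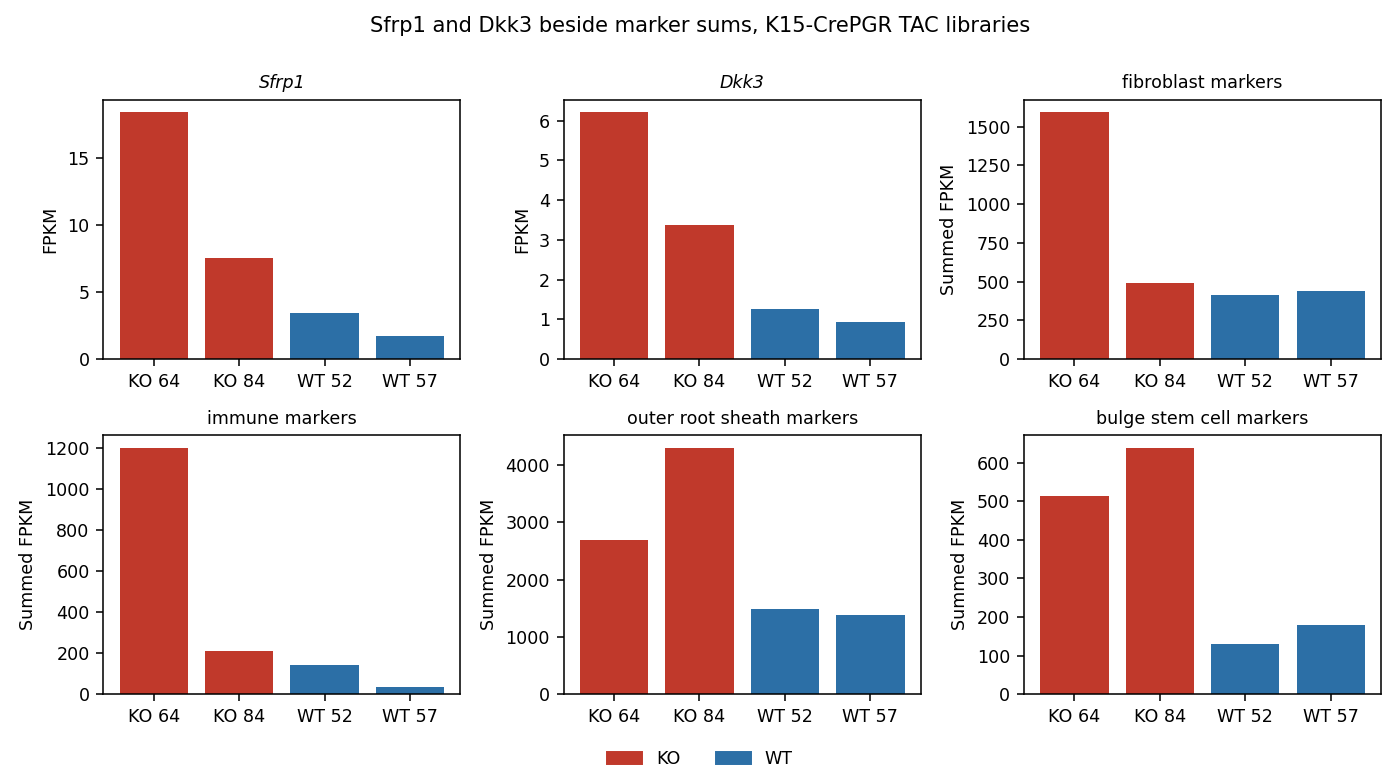
FPKM of Sfrp1 and Dkk3 and summed FPKM of 4 marker lists in the 4 K15-CrePGR TAC libraries, KO left of WT. KO 64 has the highest Sfrp1, Dkk3, fibroblast and immune levels, and KO 84 the highest outer root sheath and bulge sums.

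Tcf7 encodes TCF1, a DNA-binding partner of beta-catenin. It was at 8.58 FPKM in cKO and 5.49 FPKM in Het HFSC (log2 difference 0.56), and at 22.8 and 30.2 FPKM in cKO and Het Shh-CreER TAC (log2 difference -0.39). In K15-CrePGR TAC it was at 22.4 and 22.1 FPKM in KO 64 and KO 84, against 29.8 and 23.7 FPKM in WT 52 and WT 57. Both KO samples were below both WT samples, by less than the distance between the WT samples in the case of WT 57 (log2 difference -0.25, 95% interval -0.70 to 0.21, limma adjusted p = 0.478). The interval listed for Tcf7 (mm9 chromosome 11, 51763383 to 52099681) spans 336 kb and is shared by 18 entries, so it is not the extent of the gene.

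Myc encodes a transcription factor of growth and division and is a classical Wnt target. It was at 76.2 FPKM in cKO and 97.9 FPKM in Het HFSC and at 46.3 and 52.7 FPKM in cKO and Het Shh-CreER TAC, differences under 2-fold. In K15-CrePGR TAC (mm9 chromosome 15, 61816945 to 61821929) it was at 23.2 and 12.4 FPKM in KO 64 and KO 84, against 54.3 and 31.5 FPKM in WT 52 and WT 57. Both KO samples were below both WT samples (log2 difference -1.23, 95% interval -2.33 to -0.14, unadjusted p = 0.0350, limma adjusted p = 0.259). The difference was -0.81 without KO 84 and -0.85 without WT 52.

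Over the 7 genes tested in K15-CrePGR TAC, limma called 0 at an adjusted p under 0.05, against 0.0663% of 13565 loci (9 loci, 0.0369% higher and 0.0295% lower). At an unadjusted p under 0.05 there were 4 (Nkd2, Dkk3, Sfrp1 and Myc), against 17.4% of loci. Both KO samples lay above both WT samples for 2 genes, against 26.8% of loci, and below for 3, against 27.5% (54.4% of loci either way). Of the 7, 2 were at least 2-fold higher (Sfrp1 and Dkk3), against 10.1% of loci, and 2 at least 2-fold lower (Nkd2 and Myc), against 2.55%. The median log2 difference of the 7 was -0.15, beside -0.03 over all loci tested. In HFSC the median over 7 genes was -0.43, beside 0.05 over all 12205, and in Shh-CreER TAC it was 0.13 over 8 genes, beside 0.01 over 12296. With 2 samples against 2, an exact two-sided permutation test of 1 gene cannot give a p below 0.333, and the labels do not say that the samples are separate animals.

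Nkd2 and Myc each have a second entry at the same interval of the K15-CrePGR table, and the values above are those of the higher entry. The interval listed for Nkd2 holds 3 entries with 2 symbols, so it is not that of Nkd2 alone. Locus numbers in that table run first through the plus strand and then through the minus strand of a chromosome: this order held for 99.4% of 26911 single-entry genes. By that order the second entry of both genes is on the strand opposite to the gene. Whether the libraries kept strand is not stated in the labels, so reads of a gene and of a transcript antisense to it cannot be told apart. For Nkd2 the second entry was at 0 and 2.22 FPKM in KO 64 and KO 84, against 0.480 and 1.21 FPKM in WT 52 and WT 57. For Myc it was larger, at 8.34 and 10.2 FPKM in KO 64 and KO 84, against 12.6 and 21.4 FPKM in WT 52 and WT 57. With both entries summed, Myc was at 31.5 and 22.6 FPKM in KO 64 and KO 84, against 66.9 and 52.9 FPKM in WT 52 and WT 57, and its log2 difference was -1.13 (limma adjusted p = 0.155). The sum for Nkd2 was 10.8 and 11.8 FPKM in KO 64 and KO 84, against 31.4 and 31.3 FPKM in WT 52 and WT 57 (log2 difference -1.40, limma adjusted p = 0.0833).

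The share of such opposite-strand entries split the 4 libraries across the genotypes. Over 232 symbols with an entry on each strand, its median was 5.82% in KO 64 and 12.02% in KO 84, against 5.76% in WT 52 and 11.5% in WT 57. KO 64 was therefore compared with WT 52 and KO 84 with WT 57, a split chosen after the data were seen. Within these pairs the log2 differences were -1.44 and -1.56 for Nkd2, -1.20 and -1.27 for Myc, 2.13 and 1.66 for Sfrp1, and 1.67 and 1.18 for Dkk3. The pairs had opposite signs for Nkd1 (-0.39 and 0.80), and the same sign for Axin2 (-0.21 and -0.09) and Tcf7 (-0.40 and -0.10). With the pair as a term in the limma fit, Nkd2, Myc and Sfrp1 each had an adjusted p of 0.102 and Dkk3 one of 0.161.

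**Figure D4:**
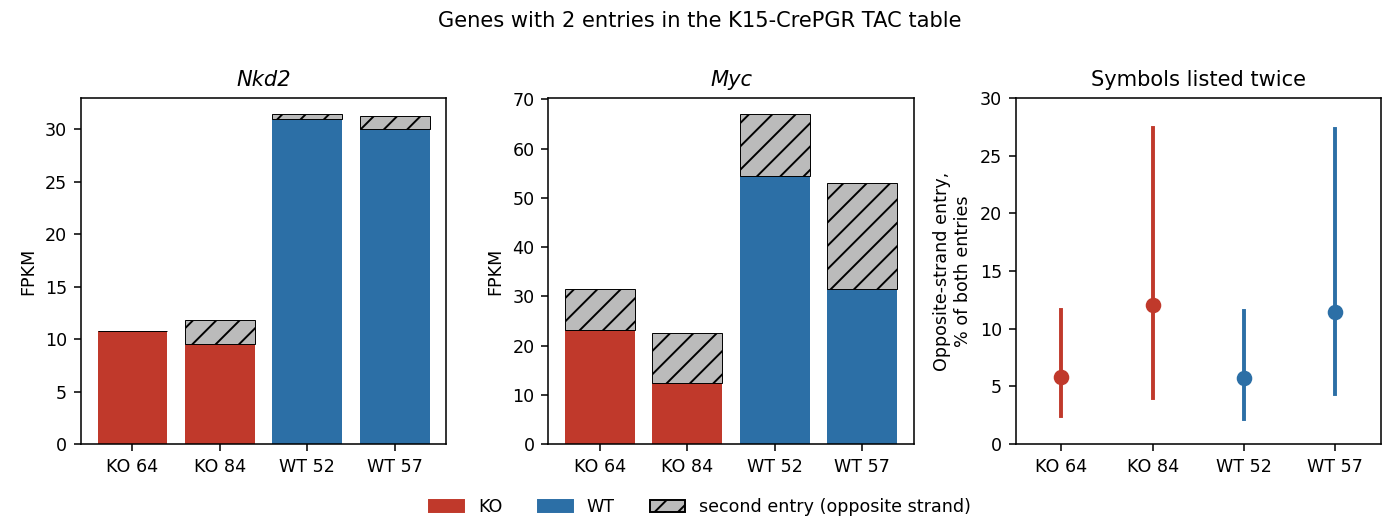
FPKM of the 2 entries of Nkd2 and Myc in the K15-CrePGR TAC libraries, stacked, and the median share of the opposite-strand entry over 232 symbols with its quartiles. KO 84 and WT 57 carry more opposite-strand signal (12.02% and 11.5%) than KO 64 and WT 52 (5.82% and 5.76%), and the KO totals stay below the WT totals for both genes.

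The rest of the pathway was read from 5 lists with 88 genes in all, chosen, as the 8 genes were, with earlier results of these data known. In K15-CrePGR TAC, 1 of 74 tested was called higher, against 0.0369% of all loci, and 0 lower, against 0.0295%, and 21 had an unadjusted p under 0.05, against 17.4% of all loci. The counts of genes at least 2-fold apart given below for each list are read against the shares over all genes, which were 5.92% higher and 4.6% lower in HFSC, 2.67% higher and 2.77% lower in Shh-CreER TAC, and 10.1% higher and 2.55% lower in K15-CrePGR TAC. The called gene was Igfbp4, which encodes a binding protein for insulin-like growth factors that can also inhibit Wnt signalling: it was at 153 and 130 FPKM in KO 64 and KO 84, against 18.5 and 17.2 FPKM in WT 52 and WT 57 (log2 difference 2.91, 95% interval 2.49 to 3.34, limma adjusted p = 0.0417). The difference of Igfbp4 stayed between 2.68 and 3.03 in the alternatives, while its adjusted p was 0.0901 without KO 64, 0.0695 without KO 84, 0.508 without WT 52 and 0.497 without WT 57. With either WT sample left out, 0 of 13565 loci were called. Igfbp4 was also at 188 FPKM in cKO and 59.6 FPKM in Het Shh-CreER TAC, and at 139 and 85.4 FPKM in cKO and Het HFSC.

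The list named secreted Wnt inhibitors also holds genes of membrane proteins, among them Apcdd1, Kremen1 and Kremen2, so its counts are not of secreted proteins alone. It had the highest median of the Wnt lists in K15-CrePGR TAC, a log2 difference of 1.09, beside -0.03 over all loci. Of 12 tested, 7 were at least 2-fold higher, Kremen2 (log2 difference 1.07) among them, and 0 lower. Marker lists of other cells were also higher in the same KO samples, with median log2 differences of 2.18 for fibroblasts, 1.96 for the bulge, 1.58 for the outer root sheath and 2.45 for the isthmus and infundibulum, a list that shares Sostdc1 with the inhibitors. Their part in the inhibitor counts was not tested. Besides Igfbp4, the Wnt-binding inhibitor Wif1 was at 96.9 and 57.1 FPKM in KO 64 and KO 84, against 25.3 and 29.5 FPKM in WT 52 and WT 57 (limma adjusted p = 0.160). Sostdc1, a BMP and Wnt antagonist, was at 21.1 and 9.25 FPKM in KO 64 and KO 84, against 9.33 and 1.92 FPKM in WT 52 and WT 57 (limma adjusted p = 0.378). In Shh-CreER TAC, 2 of 12 in this list, Igfbp4 among them, were at least 2-fold higher and 0 lower (median 0.17). Wif1 was at 459 FPKM in cKO and 232 FPKM in Het there, and the membrane inhibitor gene Apcdd1 at 232 and 149 FPKM. Both of these differences were under 2-fold. In HFSC, 0 of 8 were at least 2-fold higher and 1 lower (median 0.05), which was Dkkl1, a gene related to Dkk3, at 22.5 FPKM in cKO and 79.5 FPKM in Het.

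The nuclear partners of beta-catenin include activators and repressors. Tcf7l1, a TCF factor that mainly represses and marks bulge cells, was at 26.2 FPKM in cKO and 8.47 FPKM in Het HFSC. In K15-CrePGR TAC it was at 13.1 and 9.47 FPKM in KO 64 and KO 84, against 4.29 and 1.81 FPKM in WT 52 and WT 57 (limma adjusted p = 0.173). Lef1, the factor of the hair matrix, was at 50.2 and 36.8 FPKM in KO 64 and KO 84, against 68.9 and 64.1 FPKM in WT 52 and WT 57 (limma adjusted p = 0.255). In Shh-CreER TAC, Lef1 was at 51.6 FPKM in cKO and 87.0 FPKM in Het, and the co-repressor gene Tle4 at 4.56 and 20.4 FPKM. Of 12 genes in this list, 1 was at least 2-fold higher and 0 lower in HFSC (median 0.19), and 2 were higher and 0 lower in K15-CrePGR TAC (median 0.18). In Shh-CreER TAC, 0 of 11 were at least 2-fold higher and 1 lower (median 0.09).

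Among receptors, 1 of 20 was at least 2-fold lower in HFSC and 0 higher (median 0.08): Fzd9, a Frizzled receptor gene, at 0.613 FPKM in cKO and 10.5 FPKM in Het. Since Fzd9 passed the filter through the Het library alone, nothing is read from its count there. In Shh-CreER TAC, 1 of 19 was at least 2-fold higher and 0 lower (median 0.25), Ror1, at 9.21 FPKM in cKO and 3.77 FPKM in Het. In K15-CrePGR TAC, 1 of 19 was at least 2-fold higher and 0 lower (median 0.17). This was Lgr5, a receptor for R-spondins and a stem cell marker, at 26.1 and 26.2 FPKM in KO 64 and KO 84, against 3.69 and 5.56 FPKM in WT 52 and WT 57 (log2 difference 2.29, limma adjusted p = 0.0866). The samples of each genotype were close together, as for Nkd2, with the opposite direction.

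Intracellular transducers had median log2 differences of 0.02 in HFSC, beside 0.05 over all genes (1 of 20 at least 2-fold higher, 0 lower), 0.19 in Shh-CreER TAC, beside 0.01 (1 of 18 higher, 0 lower), and -0.05 in K15-CrePGR TAC, beside -0.03 (0 of 18 higher, 1 lower). The beta-catenin gene Ctnnb1 was at 479 FPKM in cKO and 267 FPKM in Het HFSC, a difference under 2-fold. The lower entry in K15-CrePGR TAC joins the Dishevelled gene Dvl2 with a microRNA gene (listed as Dvl2,Mir324) and was at 22.9 and 23.1 FPKM in KO 64 and KO 84, against 55.5 and 92.8 FPKM in WT 52 and WT 57 (limma adjusted p = 0.133). Other Wnt target genes were at least 2-fold higher for 3 of 17 and lower for 1 in HFSC (median 0.47), where Sox4 was at 21.6 FPKM in cKO and 4.09 FPKM in Het and Fosl1 at 18.9 and 54.2 FPKM. In Shh-CreER TAC, 1 of 20 was higher and 0 lower (median 0.49), which was Fosl1, at 9.84 FPKM in cKO and 3.77 FPKM in Het. The cyclin gene Ccnd1 was at 95.3 FPKM in cKO and 52.5 FPKM in Het there, a difference under 2-fold. In K15-CrePGR TAC, 2 of 18, Lgr5 among them since it is in both lists, were higher and 0 lower (median 0.05), and the Notch ligand gene Jag1 was at 79.1 and 54.6 FPKM in KO 64 and KO 84, against 155 and 110 FPKM in WT 52 and WT 57 (limma adjusted p = 0.224).

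**Figure D5:**
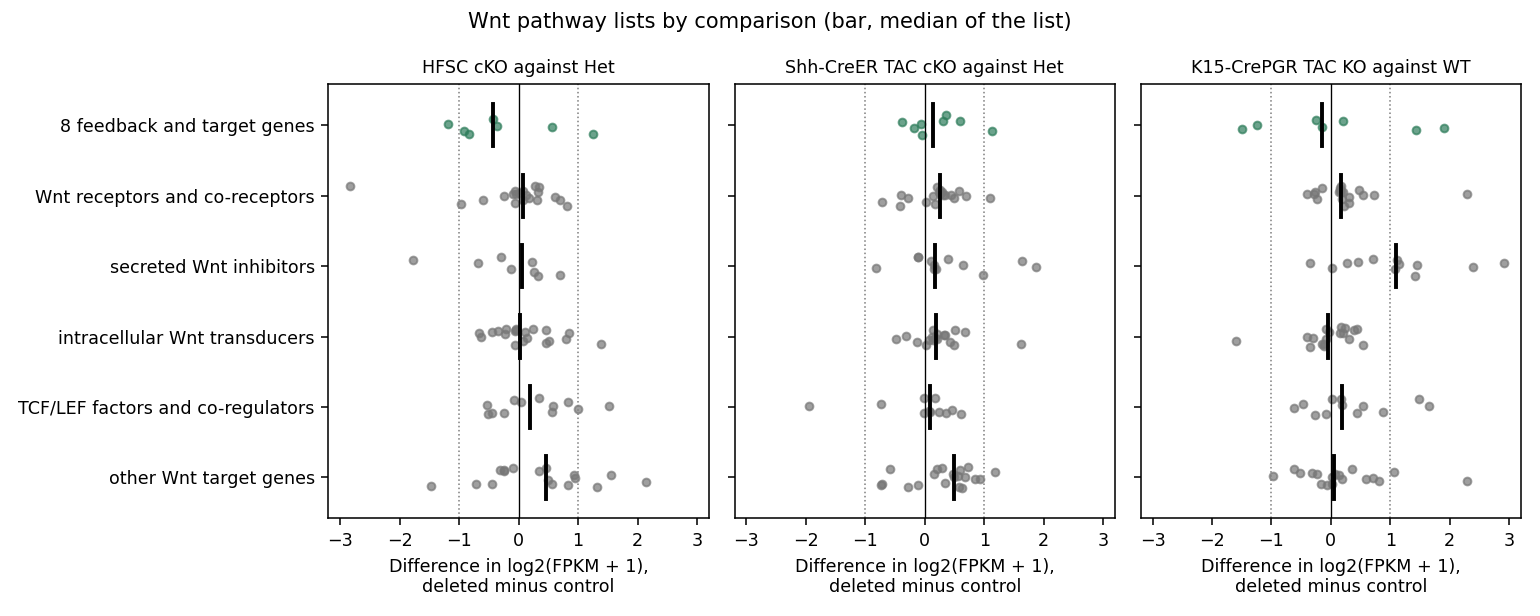
Difference in log2(FPKM + 1), deleted minus control, for genes that passed the filter in each Wnt pathway list and for the feedback and target genes that passed it (7, 8 and 7 in the 3 panels), with the list median as a bar and 2-fold as dotted lines. The list of secreted inhibitors, which also holds genes of membrane proteins, has the highest median in K15-CrePGR TAC, at 1.09.

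The genes most like each of the 8 were sought over the 8 libraries by Pearson's r of log2(FPKM + 1) centred within each table, among 7394 genes averaging 5 FPKM or more in every table. The libraries of a table share its normalization, and the best 3 of 7394 genes over few libraries will have a high r. Size plays no part in r. Prrc1, the nearest to Dkk3, had log2 differences of -0.25 in HFSC, 0.10 in Shh-CreER TAC and 0.32 in K15-CrePGR TAC. Those of Dkk3 were -0.91, 0.31 and 1.43. Each r is given as a description only. Nkd2 was closest to Mgst1 (r = 0.989), Sipa1l1 (0.989) and Rdh11 (0.986). For Sfrp1 the closest were Tesk1 (0.991), St3gal4 (0.991) and Slc25a24 (0.990), and for Dkk3 they were Prrc1 (0.994), Nckipsd (0.988) and Cic (0.987). Axin2 was closest to Tanc1 (0.980), Tex261 (0.970) and Rgp1 (0.966), and Myc to Oxsr1 (0.989), Klf5 (0.987) and Itm2b (0.987). Tcf7 had 2310009B15Rik (0.997), Rwdd1 (0.980) and Zfp46 (0.977), and Nkd1 had Bsdc1 (0.993), Cdkn2b (0.935) and Zfyve27 (0.934). None of these 21 genes is in the Wnt lists used here. The lists hold 88 genes, few beside the 7394 searched, so nothing is read from this absence. Dkk4 was left out, since it lacked a mean of 1 FPKM in HFSC and K15-CrePGR TAC.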

How the data were processed

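RNA was measured in 8 libraries. The authors deposited FPKM values, 1 column per library, in 3 separately normalized tables; TopHat, Cufflinks and mm9 are named in the submitters' processing notes, and no version of them is given there. Columns were matched to samples by title. Of 45930 loci in the K15-CrePGR TAC table, 8904 carry no name and hold 78.4% to 79.0% of the summed FPKM; they were left out. Where a symbol repeats, its highest entry by mean was used, and a joined locus stands for each of its symbols.

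For K15-CrePGR TAC, log2(FPKM + 1) of the 13565 named loci averaging 1 FPKM or more was fitted in limma 3.58.1 in R 4.3.3 (moderated two-sided test, variance trend on level, Benjamini-Hochberg over all loci, threshold 0.05), after a check on simulated data. This scale understates the change of low genes. The other tables have 1 library per genotype, so genes at least 2-fold apart were counted and no test was run. Depth was estimated from the worth of 1 read among values under 0.3 FPKM and GENCODE vM21 transcript lengths over 1000 bp; such estimates cover counting error only.

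The 8 genes and all lists were chosen with earlier results of these data known. Named genes are the 8, Bmpr1a, up to 3 genes per Wnt list and table with the largest difference at a mean of at least 5 FPKM (not all are printed), and the 3 nearest patterns per gene. Alternatives were other pseudocounts (0.1, 5), filters, scalings, entries and a fit without the trend, and each library left out; summing entries in the K15-CrePGR table and the library pair were added after the data were seen. Python 3.11.15, numpy 2.4.6, pandas 2.3.3 and matplotlib 3.10.9 were used.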

Additional observations from a re-analysis of the deposited data

Results flagged for a closer look

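Deleted and control libraries differed in opposite directions, by at least 0.5 on the log2 scale in both comparisons, for 2 of the 8 genes. Dkk3 had a log2 difference of -0.91 in HFSC and 1.43 in K15-CrePGR TAC, values 2.34 apart. Nkd2 had -1.19 in HFSC and 0.60 in Shh-CreER TAC, values 1.78 apart. The HFSC value of Nkd2 rests on 0.397 FPKM in cKO and 2.18 FPKM in Het, passed the filter through the Het library alone, and was -0.41 with a pseudocount of 5, under the size of 0.5 used here. Against its 0.60 in Shh-CreER TAC, Nkd2 had -1.50 in K15-CrePGR TAC, -2.09 from the one to the other. These differences between comparisons were not tested, since HFSC and Shh-CreER TAC have 1 library per genotype.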

How the results depend on the processing

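There were 14 alternatives of the K15-CrePGR fit, 2 of them added after the data were seen. The fit reported tested 7 of the 8 genes, without Dkk4, and called 0. Limma also called 0 of the genes tested in each alternative that kept every library. Of all loci, the fit reported called 9. Among the alternatives that kept every library, counts over 1.5 times away from this were 15 with a filter of 5 FPKM and 21 with a pseudocount of 0.1. They were 14 with unnamed loci and 5 with no filter or with the library pair. Leaving out 1 library also moved the count, but such a fit has 1 sample in a group, so its counts are not read. Nkd2, Myc, Sfrp1, Axin2 and Tcf7 kept their sign in all 14, and Dkk3 in all but the filter of 5 FPKM, which drops it. The direction of Nkd1 turned with quantile normalization (-0.10), and leaving out 1 library gave -0.13 to 0.54. Over these left-out libraries Nkd2 ran from -1.58 to -1.42, Myc from -1.66 to -0.81, Sfrp1 from 1.31 to 2.49 and Dkk3 from 1.07 to 1.79. The 1 call in the pathway lists became 0 with the library pair as a term, median scaling, no filter, a pseudocount of 5, quantile normalization, unnamed loci or no trend, and 0 to 0 with any library left out; the cause was not tested. In HFSC the 2 genes at least 2-fold apart became 1 with a pseudocount of 5 and 1 with a filter of 5 FPKM, which drops Nkd2, and 3 with quantile normalization (Dkk3 at -1.05). In Shh-CreER TAC a pseudocount of 5 left 0 of the 8 genes (Dkk4 at 0.98) and 2 instead of 6 pathway genes. No paired analysis was possible because the labels give KO and WT samples numbers that pair none of them; the library pair above was drawn from the data. FPKM hold no read counts, so the precision of low values, such as Dkk4 and Nkd2 in HFSC, is limited by a depth that is only estimated.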
